A study of Mus musculus with 6 samples.

Results

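The proteasome subunit genes of mouse islets were described here across islets of overfed and of saline-infused mice. Members were the rows of the deposited count table whose symbol is Psm followed by a letter from a to g and a number, without the immunoproteasome genes Psmb8, Psmb9 and Psmb10. That rule gave 45 of the 23420 genes in the table, and it used no measured value. The core particle held 16 of them (Psma and Psmb), its regulatory cap 20 (Psmc and Psmd), and 9 were activators, an inhibitor and core assembly chaperones (Psme, Psmf and Psmg). The 20 counted as cap include 3 chaperones that assemble its base (Psmd5, Psmd9 and Psmd10), while the core's chaperones are among the 9. Of the 45, 44 passed the filter on low counts and were tested.

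Polyadenylated RNA came from pancreatic islets, the hormone-secreting clusters of the pancreas, of C57BL/6J mice. OIO mice (overfeeding-induced obesity, n = 3 libraries) had been given the liquid diet Ensure by gastric infusion at 13 to 18.5 kcal per day for 9 days. Control mice (n = 3 libraries) had been given saline by gastric infusion for 9 days. The strain, the infusion route and its length were thus shared by both groups, and no transgene or deletion is named in the labels. Neither age nor sex is used here, and nothing in the labels ties a library to a mouse of its own. The p-values below therefore set the difference between groups against the variation among libraries within a group, and that variation may be technical.

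The proteasome is the protease that degrades proteins tagged with ubiquitin in the cytosol and nucleus, including misfolded proteins pulled back out of the endoplasmic reticulum. Its barrel-shaped core is built of outer rings of alpha subunits, which gate the entry, and inner rings of beta subunits, some of which carry the proteolytic sites. The cap that sits on the core has a base, whose ATPases unfold the substrate and push it in, and a lid, which removes the ubiquitin chain. Beta cells make large amounts of secretory protein, and the transcription factor NRF1 (gene Nfe2l1) is known to raise proteasome genes together when the proteasome is inhibited.

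Library totals ranged from 20968058 to 48178375 counts in OIO and from 34103107 to 39286793 in Control. Members averaging at least 1 CPM (counts relative to library size, with sizes scaled by trimmed mean of M-values) held between 146 and 8358 counts in a library. Summed CPM of 5 beta cell markers was 240390 to 263178 in OIO and 185284 to 237051 in Control, with the insulin genes Ins2 and Ins1 the most abundant of them, so the islet label held. Alpha cell markers summed to 51665 to 61826 CPM in OIO and 43626 to 79602 in Control, and delta and PP cell markers to 5924 to 7141 and 7587 to 8255. Acinar markers summed to 2851 to 6625 CPM in OIO and 2410 to 7811 in Control, and of these 8 markers Amy2a5 was at 0 in every library. Leukocyte markers summed to 142 to 158 CPM in OIO and 111 to 173 in Control, duct markers to 132 to 240.2 and 99.3 to 112, and endothelial markers to 484 to 566 and 505 to 515. Stromal markers summed to 113 to 237 CPM in OIO and 144 to 445 in Control. The beta and duct sums of every OIO library lay above those of Control and the delta and PP sums below. The markers within these lists differed. Duct sums were mostly Spp1 (mean 167 CPM in OIO, 102 in Control), while Krt19 and Sox9 overlapped. Ppy was lower in every OIO library (mean 3034 against 4610 CPM), while Sst and Hhex overlapped. Among beta markers Ins1 and Iapp lay above, Slc2a2 lay below, and Ins2 and Mafa overlapped. Of the single markers, 1 beta and 1 alpha cell gene were lower in edgeR and 0 were higher. The part of cell makeup in the results below was not tested. In bulk RNA a change in the number of cells of a type and a change in RNA per cell cannot be told apart.

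Most members differed little between the groups. Psmb6, which encodes the caspase-like catalytic subunit of the core, rose in OIO islets, and none of the other 43 tested members passed an adjusted p of 0.05 in edgeR's quasi-likelihood test. That is 2.27% of the members tested, against 7.37% of all 14903 genes tested that passed in either direction. Of all genes, 4.54% were higher and 2.84% lower in OIO. Psmb6 was also the one member to pass in DESeq2, where 9.66% of genes passed (6.16% higher), and in limma voom, where 6.62% did. With library size alone as the scale no member passed and 10.8% of genes did, 498 of them higher and 1113 lower, against 676 and 423 with the main scaling. At that scale 3 members had an unadjusted p under 0.05 in edgeR, as did 4034 of all 14903 genes. The main scaling gave more such members. Without adjustment and with the main scaling, 7 members had a p under 0.05, all higher in OIO, and 23.4% of all genes did. Log2 fold changes of members lay between −0.08 and 0.24, with a median of 0.04 (−0.02 with library size alone as the scale) and a middle range of −0.02 to 0.11. For all genes tested the median was −0.01 and the middle range −0.14 to 0.12. Among members averaging at least 5 CPM, 43 of 43 lay within 0.25 of zero on the log2 scale, as did 84.1% of the 11102 tested genes at that level.

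**Figure D1:**
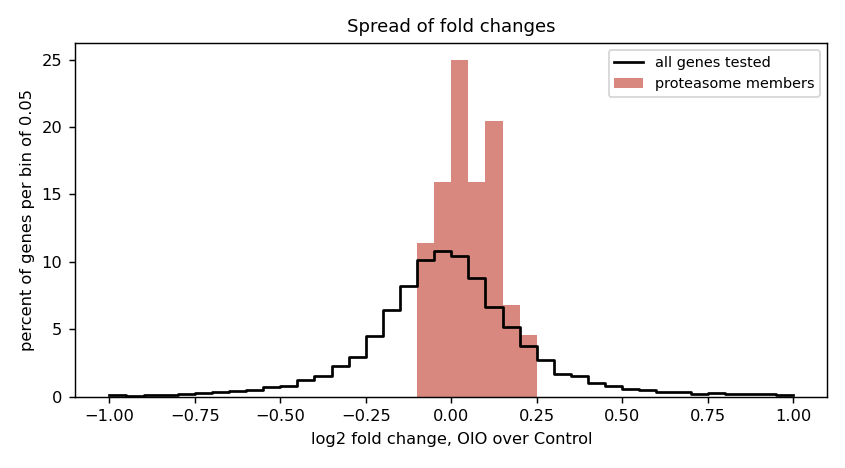
Percent of genes per bin of log2 fold change of OIO over Control (x axis, bins of 0.05) for the 44 tested proteasome members (bars) and all 14903 genes tested (line); the 2.31% of all genes beyond 1 in size are not drawn. The members fill only the bins between −0.10 and 0.25.

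A p above the threshold does not show that a gene stayed the same, so the 95% interval of each difference was computed from the same fit, without adjustment. For 43 of 44 members that interval stayed within a 1.5-fold difference in either direction, and for 40 of 44 within 1.3-fold. Of all genes, 71.5% and 52% had intervals that narrow. The median level of members was 62.4 CPM, against 18.4 CPM for all genes tested, and these shares were not matched for level. Replicates of members averaging at least 1 CPM were close, with a median coefficient of variation of 3.14% in OIO and 5.31% in Control.

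**Figure D2:**
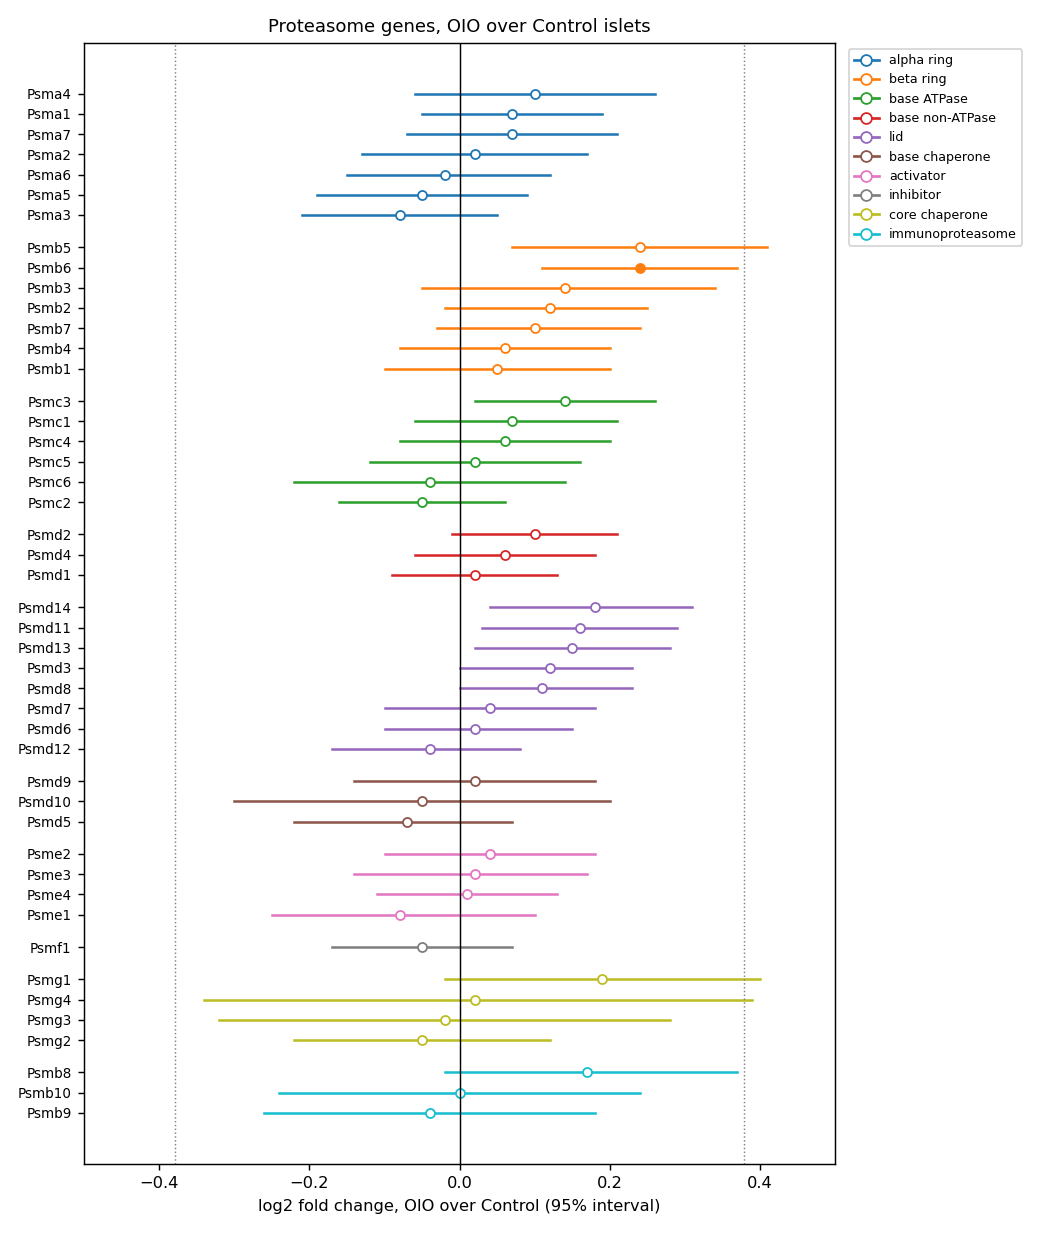
Fold change on the log2 scale, OIO over Control, and its 95% interval for 43 members and the 3 immunoproteasome genes, grouped by role; filled points passed an adjusted p of 0.05, dotted lines mark a 1.3-fold difference, and Psma8 (interval −1.28 to 1.53) is not drawn. Psmb6 is the filled point, at 0.24 (0.11 to 0.37).

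The upstream sequences of 2 catalytic genes are shown because these were the members with the largest differences and, among core genes, the ones whose upstream window held the core of the antioxidant response element, TGACNNNGC. This element is bound by NRF1 and NRF2. Sequences are from RefSeq on GRCm38.p6, 5′ to 3′ on the gene's strand, with the match in capitals. Psmb6 is at chr11:70525257-70525356 (+ strand), from 100 bases upstream to the base before the RefSeq start site. Psmb5 is at chr14:54618023-54618095 (− strand), from 100 to 28 bases upstream.
Psmb6: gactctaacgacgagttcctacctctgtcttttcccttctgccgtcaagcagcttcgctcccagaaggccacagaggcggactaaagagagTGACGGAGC
Psmb5: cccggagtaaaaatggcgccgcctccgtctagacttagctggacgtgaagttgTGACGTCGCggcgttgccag

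RefSeq windows were found for 37 of the 45 members, and the 250 bases upstream of the start site were searched on both strands. TGACNNNGC was in the windows of 5 members, and in 12.5% of the members' windows against 10.2% of all 32851 windows. The other matches were in cap genes: Psmc6 at −0.04 (SE 0.08), Psmd12 at −0.04 (SE 0.06) and Psmd9 at 0.02 (SE 0.07) on the log2 scale, none of which passed. A match was thus present both in the members that differed most and in members near zero.

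Among the catalytic subunits of the core, Psmb6 had 80.8, 83.7 and 87.5 CPM in OIO libraries, against 67.0, 74.4 and 72.1 CPM in Control libraries. The lowest OIO library was above the highest Control library. The rise was 0.24 on the log2 scale (SE 0.06, adjusted p = 0.037), or 1.18-fold with a 95% interval of 1.08 to 1.29. Psmb6 did not pass when library size alone set the scale (log2 fold change 0.17, adjusted p = 0.092), nor in 5 of the 6 fits with a library left out. The adjusted p was 0.06, 0.11 and 0.12 without OIO replicates 1, 2 and 3, and 0.087 and 0.063 without Control replicates 1 and 3. It lies on chromosome 11 from 70525367 to 70527858 in GRCm38, and the GENCODE annotation names 2 processed pseudogenes after it, Psmb6-ps and Psmb6-ps2, neither of which is a row of the count table; the same holds for Psmb5-ps and Psmb7-ps2. In the authors' deposited table Psmb6 had a log2 fold change of 0.24 and an adjusted p of 0.056.

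Psmb5, the chymotrypsin-like subunit and the site that most proteasome inhibitors block, had 21.5, 21 and 23.0 CPM in OIO libraries, against 17.6, 18 and 19.7 CPM in Control libraries. Here too the libraries did not overlap. Its log2 fold change was also 0.24 (SE 0.08, 95% interval 0.07 to 0.41), with an adjusted p of 0.082 in edgeR's test. Psmb5 lies on chromosome 14 from 54614119 to 54618022, and 109 of its exon bases hold the miRNA gene Mir686 on the same strand.

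Psmb7, the trypsin-like subunit, had 68.0, 65.4 and 63.9 CPM in OIO libraries, against 61.6, 57.6 and 64.4 CPM in Control libraries. Control replicate 3 lay above OIO replicate 3, so the groups overlapped. Its log2 fold change was 0.10 (SE 0.06, 95% interval −0.03 to 0.24, adjusted p = 0.33 in edgeR). Psmb7 lies on chromosome 2 from 38588036 to 38644087 and shares 405 exon bases with Nek6 on the opposite strand. Whether the libraries keep strand is not stated, so reads of those bases cannot be assigned with certainty.

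The immunoproteasome genes encode the subunits that replace these catalytic ones in immune cells and after interferon exposure, and they were read beside their constitutive counterparts. Psmb8, the counterpart of Psmb5, had 25.1, 23.0 and 20.5 CPM in OIO libraries, against 19.3, 19.9 and 21.4 CPM in Control libraries, and the groups overlapped. Its log2 fold change was 0.17 (SE 0.09, adjusted p = 0.26). Psmb9, the counterpart of Psmb6, had 12.2, 9.97 and 11.8 CPM in OIO against 11.9, 11.4 and 11.4 CPM in Control, which is −0.04 on the log2 scale (SE 0.10) with an adjusted p of 0.85. Psmb10, the counterpart of Psmb7, had 23.8, 18.3 and 19 CPM in OIO against 21, 18.3 and 21.5 CPM in Control, which is 0.00 on the log2 scale (SE 0.11) with an adjusted p of 0.99. Psmb9 shares 212 exon bases with Tap1 and Psmb8 186 with Gm20496, both on the opposite strand. OIO replicate 1 had the highest level of all 3 genes, summing to 61.0 CPM against 51.2 and 51.3 in the other OIO libraries and 49.7 to 54.3 in Control. The same library had the highest endothelial and duct marker sums of the 6 (566 and 240.2 CPM), and Spp1 made up 233 CPM of that duct sum. Its leukocyte marker sum was 158 CPM, below the 173 CPM of Control replicate 3. The part of these cells in the immunoproteasome level of OIO replicate 1 was not tested.

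**Figure D3:**
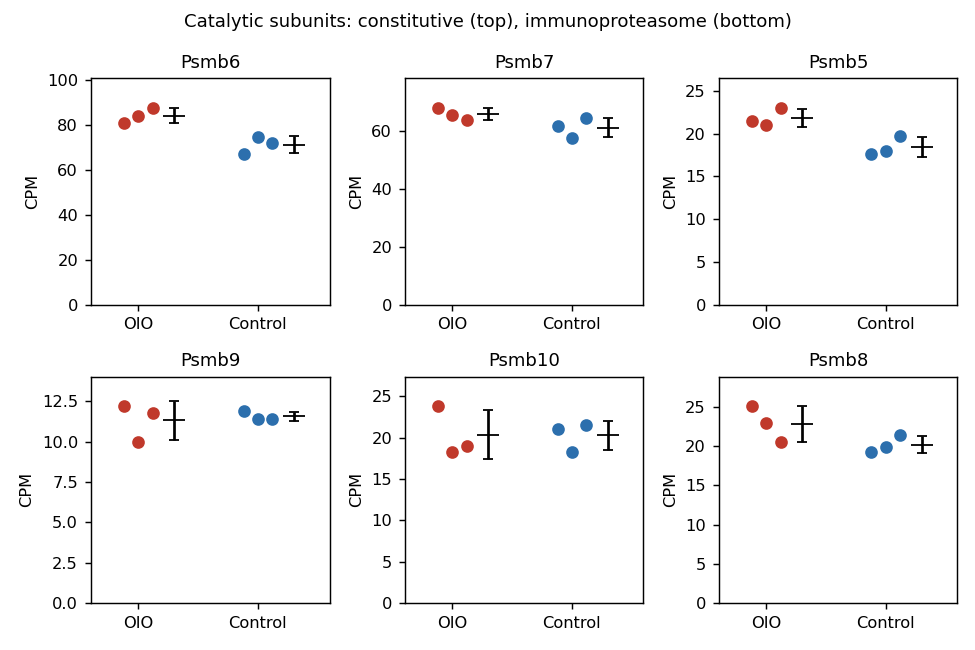
CPM by library for the constitutive catalytic subunits (top) and their immunoproteasome counterparts in the same columns (bottom), OIO left and Control right; points are libraries, and the dash with bars is the mean and SD of 3. Psmb6 and Psmb5 have every OIO library above every Control library, and the other genes overlap.

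The remaining beta subunits have no proteolytic site in the mature core. Psmb2 had a log2 fold change of 0.12 (SE 0.06), Psmb3 of 0.14 (SE 0.09), Psmb4 of 0.06 (SE 0.06) and Psmb1 of 0.05 (SE 0.07), and none passed edgeR's test. All 7 tested beta subunits thus had a log2 fold change above zero, but 5 of 7 did with library size alone as the scale and 6 of 7 without Control replicate 1. Of all genes tested 47.5% were above zero, 34.4% with library size alone as the scale and 47.5% without Control replicate 1. Summed over the beta ring, the level was 434, 439 and 442 CPM in OIO libraries, against 384, 399 and 428 CPM in Control libraries. Psmb11, a beta subunit of the thymus, was not tested, with 0 counts in every library except Control replicate 3, which had 2.

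The alpha subunits were mixed. Of 8 tested, 5 had a log2 fold change above zero and 3 below, and none passed. Psma4 had 56.8, 62.2 and 59.5 CPM in OIO libraries, against 50.5, 59.8 and 56.4 CPM in Control libraries, which overlapped, at 0.10 on the log2 scale (SE 0.07, adjusted p = 0.44). Psma4 shares 114 exon bases with AY074887 on the opposite strand. At the other end, Psma3 averaged 57.4 ± 1.95 CPM in OIO and 60.5 ± 3.14 in Control (SD, n = 3 each), a log2 fold change of −0.08 (SE 0.06). Psma1 and Psma7 were each at 0.07, Psma2 at 0.02, Psma6 at −0.02 and Psma5 at −0.05. Summed over the alpha ring, OIO libraries had 455, 467 and 469 CPM and Control libraries 425, 464 and 479.7 CPM, so Control libraries lay both below and above the OIO ones. Psma8, which replaces Psma7 in the testis, was near the limit of detection, with 12, 9 and 4 counts in OIO libraries and 11, 5 and 11 in Control libraries. Its log2 fold change of 0.13 had an SE of 0.63 and turned negative in limma voom and when OIO replicate 1 or Control replicate 2 was left out.

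Core and cap were set side by side as counts and medians, without a test of their difference. Of the 15 tested core members 1 rose and 14 did not pass, and their median was 0.07 on the log2 scale, or 0.00 with library size alone as the scale. In the cap, 0 of 20 passed in edgeR, DESeq2 or limma voom, where 7.37% of all genes tested passed in edgeR. An unadjusted p under 0.05 in edgeR was seen for 5 cap members, and for 0 with library size alone as the scale. In the core these counts were 2 and 3. Of all 14903 genes tested, 3493 (23.4%) had such a p, and 4034 with library size alone as the scale. The cap median was 0.05, or −0.02 with library size alone, where that of all genes was −0.08. In the core 12 of 15 and in the cap 15 of 20 members were above zero, against 9 of 15 and 8 of 20 with library size alone. The shares of all genes tested above zero were 47.5% and 34.4%. Core transcripts summed to 888, 906 and 911 CPM in OIO libraries and 809, 863 and 907 CPM in Control libraries. Cap transcripts summed to 1341, 1381 and 1370 CPM in OIO libraries and 1279, 1312 and 1351 CPM in Control libraries. In both parts Control replicate 1 was the lowest library and Control replicate 3 overlapped the OIO libraries.

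Single members followed the same libraries. Control replicate 1 had the lowest level of the 6 libraries for 20 of the 43 members averaging at least 1 CPM, and Control replicate 3 the highest for 15. Without Control replicate 1, the median over members was 0.02 and 26 of 44 were above zero. Without Control replicate 3, the median was 0.07 and 36 of 44 were above zero. In these 2 fits 47.5% and 48.1% of all genes tested were above zero.

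**Figure D4:**
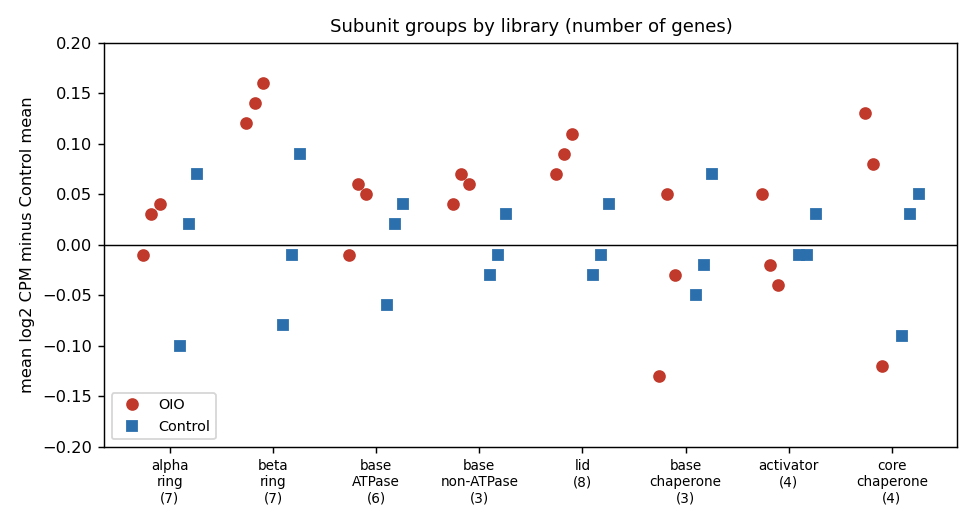
Mean over the genes of a group of log2 CPM minus the Control mean (y axis) in each library, for groups of members averaging at least 1 CPM, OIO left (circles) and Control right (squares). In the beta ring, base non-ATPase and lid groups each OIO library lies above each Control library (0.07 to 0.11 against −0.03 to 0.04 in the lid), and the other groups overlap. With library size alone as the scale, 5 of 8 lid and 5 of 7 beta ring genes are above zero, against 34.4% of all genes tested.

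Within the cap, the lid held the members with the lowest p. Of its 8 genes, 4 had an unadjusted p under 0.05 in edgeR, and 0 did with library size alone as the scale. The counts for all 14903 genes tested were 3493 (23.4%) and 4034. In DESeq2 3 lid genes had an unadjusted p under 0.05, in limma voom 4, and in edgeR without a library 1 to 3. Psmd14, the metalloprotease that cleaves the ubiquitin chain off the substrate, had 45.8, 45.5 and 47.4 CPM in OIO libraries, against 38.0, 42.6 and 42.2 CPM in Control libraries. The groups did not overlap, and the log2 fold change of 0.18 (SE 0.06, 95% interval 0.04 to 0.31) had an adjusted p of 0.12 in edgeR. Psmd11, a lid scaffold that bridges to the core, averaged 49.1 ± 0.967 CPM in OIO and 43.9 ± 1.85 in Control, which is 0.16 on the log2 scale (SE 0.06) with an adjusted p of 0.12. Psmd13 was at 0.15 (SE 0.06), Psmd3 at 0.12 (SE 0.05) and Psmd8 at 0.11 (SE 0.05). For these 5 of the 8 lid genes the OIO libraries were all above the Control libraries, which held for 14.1% of all genes tested. Psmd7, the partner of Psmd14, was at 0.04 (SE 0.06), Psmd6 at 0.02 and Psmd12 at −0.04. Psmd13 shares 152 exon bases with Sirt3 on the opposite strand.

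In the base, the ATPases ranged from −0.05 to 0.14. Psmc3 had 65.2, 65.0 and 61.1 CPM in OIO libraries, against 57.2, 57.3 and 58.8 CPM in Control libraries. These did not overlap, at 0.14 on the log2 scale (SE 0.05) with an adjusted p of 0.14, and Psmc3 shares 97 exon bases with Slc39a13 on the opposite strand. Psmc2 was the one member with every OIO library below every Control library, at 90.1 ± 0.325 CPM in OIO and 93.0 ± 2.41 in Control, a log2 fold change of −0.05 (SE 0.05). In all, 10 members had OIO above Control without overlap and 1 had it below, or 11 of 44, where 29.3% of all genes tested did not overlap. By direction, 14.1% of all genes tested had OIO above without overlap and 15.1% had it below. Of the non-ATPase subunits, Psmd2, a docking site for ubiquitin-like domains, was at 0.10 (SE 0.05), the ubiquitin receptor Psmd4 at 0.06 (SE 0.06) and the scaffold Psmd1 at 0.02 (SE 0.05). The chaperones that assemble the base, Psmd5, Psmd9 and Psmd10, were at −0.07, 0.02 and −0.05.

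None of the 9 activators, inhibitor and core chaperones passed, with 0 at an unadjusted p under 0.05 in edgeR and 0 passing in DESeq2 or limma voom. Among all genes tested in edgeR, 7.37% passed and 23.4% had an unadjusted p under 0.05. Psme1 and Psme2, the interferon-inducible activator, averaged 53.4 ± 4.99 and 65.5 ± 4.91 CPM in OIO and 56.2 ± 3.80 and 63.7 ± 1.71 in Control. Their log2 fold changes were −0.08 (SE 0.08) and 0.04 (SE 0.06). The nuclear activators Psme3 and Psme4 were at 0.02 and 0.01 and the inhibitor Psmf1 at −0.05. Psmg1, a chaperone of alpha ring assembly, had 12.7, 13.6 and 13.2 CPM in OIO libraries, against 10.5, 11.7 and 12.5 CPM in Control libraries. The libraries did not overlap, and its log2 fold change of 0.19 (SE 0.09) had an adjusted p of 0.25. Its partner Psmg2 was at −0.05 (SE 0.08), and Psmg3 and Psmg4 were at −0.02 and 0.02 with SEs of 0.14 and 0.16.

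Levels of different subunits were compared per kilobase of transcript, with the median length of a gene's coding transcripts in GENCODE M21. Core members other than Psma8 and Psmb11 ranged from 26.2 CPM per kilobase in Psma5 to 97.2 in Psmb6 over the 6 libraries, a ratio of 3.71. Psmb6 was the highest core gene, at 105 ± 4.15 CPM per kilobase in OIO and 89.2 ± 4.74 in Control. Psmb5 was among the lowest core genes, at 28.7 ± 1.36 CPM per kilobase in OIO and 24.2 ± 1.45 in Control. In the standard core every beta subunit is present in equal number. In the cap, the ATPases ranged from 30.6 in Psmc6 to 51.3 in Psmc2, and the base chaperones were the lowest, from 6.64 in Psmd9 to 8.62 in Psmd10. The lid ranged from 20.8 in Psmd11 to 51.9 in Psmd6. Neighbours in this order whose means lay within an SD of each other included Psmb1 and Psma4, and Psmd1 and Psmd7. The lengths are estimates, since which transcripts the counts came from is not given.

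**Figure D5:**
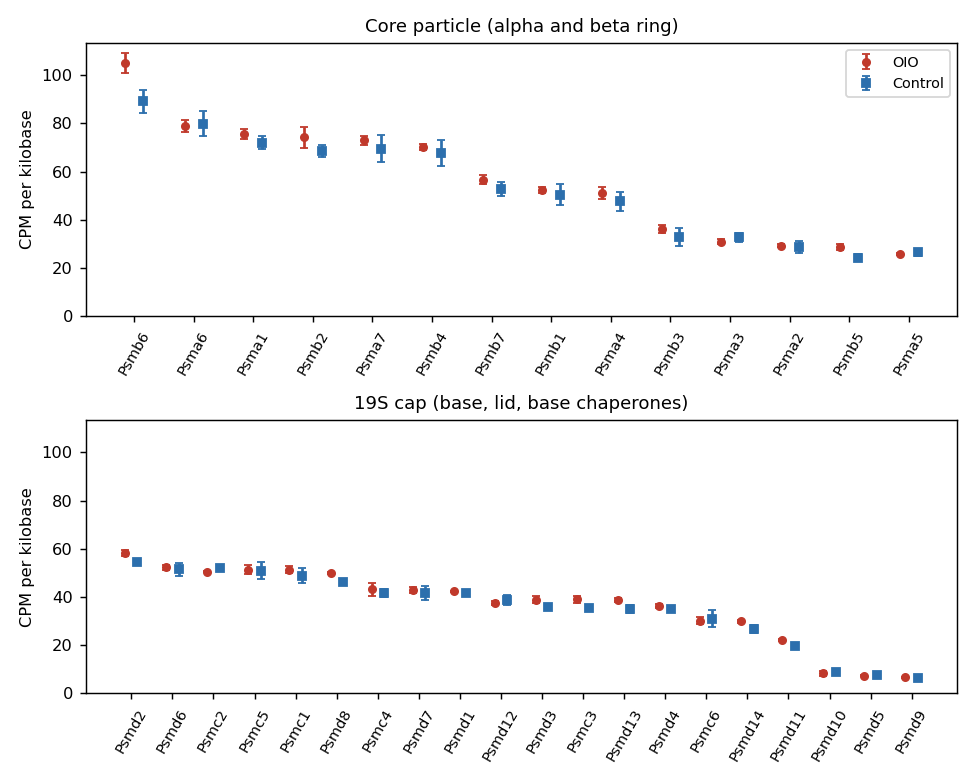
Level in CPM per kilobase of transcript for 14 core (top) and 20 cap members (bottom), ordered by the mean of all 6 libraries; points are the mean and bars the SD of 3 libraries, OIO left and Control right of each tick. By that mean the order runs from Psmb6 to Psma5 in the core and from Psmd2 to Psmd9 in the cap.

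Core transcripts were shorter than cap transcripts, with medians of 1160 and 1614 bases, against 2740 for all tested genes with a length. Across the 43 members averaging at least 1 CPM, the Spearman correlation of log2 fold change with length was −0.27, a description over genes that share libraries.

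Another short sequence differed in frequency between core and cap genes and is shown for that reason. The ETS factor core CCGGAAG, read as CTTCCGG on the other strand, was in 50% of 18 cap windows (17 genes) and 7.69% of 13 core windows (12 genes). It was also in 33.3% of the 9 windows of activators, inhibitor and core chaperones, where 6.91% of all windows of the same length hold it. Sequences are again from RefSeq on GRCm38.p6, with the match in capitals, and it starts at −84, −125, −26 and −11 from the RefSeq start site of Psmc2, Psmd4, Psmd2 and Psmd11. The stretches are Psmc2 at chr5:21785175-21785234 (+ strand), Psmd4 at chr3:95042705-95042764 (− strand), Psmd2 at chr16:20651592-20651651 (+ strand) and Psmd11 at chr11:80428555-80428614 (+ strand).
Psmc2: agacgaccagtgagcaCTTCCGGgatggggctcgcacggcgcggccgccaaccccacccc
Psmd4: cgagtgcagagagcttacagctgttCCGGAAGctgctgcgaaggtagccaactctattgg
Psmd2: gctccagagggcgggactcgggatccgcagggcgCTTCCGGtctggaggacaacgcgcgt
Psmd11: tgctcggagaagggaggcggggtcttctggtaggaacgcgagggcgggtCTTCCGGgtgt

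The 8 cap genes with the match had a median log2 fold change of 0.04 and the 9 without it 0.02. The NF-Y box CCAAT was in 53.8% of core windows, 27.8% of cap windows and 11.1% of the other members' windows, against 33.8% of all windows. These are matches of letters in a window and say nothing of binding.

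In edgeR 7.37% of all genes tested passed, and 23.4% had an unadjusted p under 0.05. Of 10 partners of the proteasome outside the Psm names, 0 passed in edgeR or limma voom, 1 passed in DESeq2, and 1 had an unadjusted p under 0.05 in edgeR. That gene was Txnl1, a thioredoxin bound to the cap, named after its value was seen, at 107 ± 3.53 CPM in OIO and 124 ± 6.33 in Control (log2 fold change −0.21, SE 0.06, adjusted p = 0.051). Pomp, the chaperone that matures the beta ring, had 53.5, 58.8 and 54.6 CPM in OIO libraries, against 45.0, 54.4 and 50.4 CPM in Control libraries. The groups overlapped, at 0.16 on the log2 scale (SE 0.08) with an adjusted p of 0.24.

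Of 7 genes of the NRF1 pathway, 0 passed in edgeR, DESeq2 or limma voom and 0 had an unadjusted p under 0.05. The shares of all genes tested in edgeR were 7.37% and 23.4%. Nfe2l1 itself had 328, 322 and 335 CPM in OIO libraries, against 350, 355 and 332 CPM in Control libraries, which is −0.07 on the log2 scale (SE 0.05) with an adjusted p of 0.45. Its level in Control replicate 3 lay between those of the OIO libraries.

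Of the enzymes that activate ubiquitin for transfer to substrates, Uba6 had 41.9, 38.1 and 38.8 CPM in OIO libraries, against 46.8, 44.9 and 49.6 CPM in Control libraries. The groups did not overlap, and Uba6 fell by 0.25 on the log2 scale (SE 0.06, adjusted p = 0.039), where 2.84% of all genes were lower. It passed in none of the 6 fits that each used 5 libraries (adjusted p 0.051 to 0.17). Uba1, the main activating enzyme, did not pass, at 298 ± 1.66 CPM in OIO and 262 ± 15.1 in Control (log2 fold change 0.18, SE 0.06, adjusted p = 0.081 in edgeR), and it passed in DESeq2.

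The authors' deposited table of their own comparison held all 44 tested members. Its direction is not stated in the file, and 42 of the 44 members had the same sign there as here. No member had an adjusted p under 0.05 in the authors' deposited table, where 6.04% of its genes did.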

How the data were processed

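The authors deposited whole-number counts per gene symbol for 6 libraries, with no normalization, and a table of their own comparison with log2 fold changes, p-values and scores (a moderated statistic and log odds), laid out as limma does, per the file headers. The submitters' processing notes list limma, kallisto and bcl2fastq as tools, with GRCm38 and mm10 as builds. How estimates became whole counts was not given in the sources. Counts as deposited were filtered by filterByExpr, scaled by trimmed mean of M-values and tested with a robust quasi-likelihood model on group in edgeR 4.0.16 (R 4.3.3), with Benjamini-Hochberg adjustment over 14903 genes and 4 residual degrees of freedom. The SE is the log2 fold change over the root of F, and the 95% interval uses its degrees of freedom. DESeq2 1.42.0, limma 3.58.1 (voom), other scalings and filters, and fits without each library were alternatives. The test was checked on simulated data.

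Replicates varied beyond counting noise (chi-square per degree of freedom 13.1 to 52.2) and were numbered in accession order. Values per library are given for members past the threshold, the largest difference in each role group, the catalytic subunits and their immunoproteasome counterparts, Uba6, Pomp and Nfe2l1; Psma4, Txnl1 and Uba1 were added after their values were seen. Some other pathway genes are not reported here. The members, lists and rules were chosen with earlier results of these data known.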

Additional observations from a re-analysis of the deposited data

How the results depend on the processing

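The number of core subunits called was 1 under RLE and upper-quartile scaling, both other filters, DESeq2 and limma voom, and 0 with library size alone as the scale; it ranged from 0 to 1 when a library was left out, with 1 only without Control replicate 2. The number of cap members called was 0 under every alternative. Genes called in all numbered 460 to 817 when a library was left out, against 1099 with all; leaving out an OIO library gave 513, 460 and 506, and leaving out Control replicate 2 gave 701. Library size alone gave 498 higher and 1113 lower genes, against 676 and 423. The sign turned for 14 of the 44 tested members with library size alone, 2 in limma voom, 0 under the other scalings, filters and DESeq2, and 2 to 6 when a library was left out, and none of these was called. Among genes with values per library, Psma8 was at −0.06 in limma voom and −0.59 to 0.54 when a library was left out, Psmb9 at −0.08 to 0.06, and Psmb10 at 0.00 under RLE, upper-quartile scaling and DESeq2 and −0.11 to 0.08. Psma8 had no value under the filter of 1 CPM in 3 libraries and no adjusted p in DESeq2. The causes were not tested. Psma8 rested on 4 to 12 counts in a library. Intervals assume the model's spread and are not adjusted. No paired analysis was possible because the replicate numbers only name libraries and the labels give no pairing.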
